A study of Mus musculus with 3 samples.

Results

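The proximal part of mouse chromosome 12, from 18 to 25 Mb (build mm9), holds more KAP1 regions than regions of either HA list. All regions whose start lies in these 7 Mb were taken from the 3 deposited lists, 1001 of 88857 regions in all. The KAP1 list contributed 430 of its 20870 regions, the HA-ZFP57 list 221 of 22031 and the HA control list 350 of 45956. The interval was chosen by the measured numbers of listed regions, because KAP1 regions outnumber both HA lists in it. The counts per list are therefore a description, and nothing is tested with them.

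Chromatin was immunoprecipitated from mouse embryonic stem (ES) cells, the pluripotent cells of the early embryo, after paraformaldehyde fixation and sonication. The control library came from ES cells without a transgene and an antibody to the HA epitope tag. The ZFP57 library used the same antibody on ES cells carrying HA-tagged ZFP57, so it reports the tagged transgene product and not the endogenous protein. The KAP1 library came from the E14 ES line, also without a transgene, and an antibody to KAP1 (RBCC). The ES line behind the HA libraries and the promoter of the transgene are not given in the labels. KAP1 thus differs from the others in antibody and possibly in cell line, and these cannot be told apart from the target. The lists hold no expression values, so the labelled cell type could not be checked against markers. Depth is unknown.

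KAP1, also called TRIM28, is a corepressor without DNA binding of its own. KRAB zinc finger proteins bring it to DNA, where it recruits the histone methyltransferase SETDB1 and heterochromatin protein HP1. In ES cells it is known for silencing endogenous retroviruses and for binding within zinc finger genes, which lie in tandem clusters in the mouse genome. ZFP57 is a KRAB zinc finger protein that recruits KAP1 to methylated imprinting control regions. The genes and repeats of the interval were not analysed here, because the gene table used is of another build.

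In the interval the KAP1 list held 1.95 regions for each ZFP57 region, against 0.947 over the whole lists. It held 1.23 for each control region, against 0.454 over the whole lists. On the rest of chromosome 12 the ratios were 0.806 and 0.357, from 656 KAP1, 814 ZFP57 and 1836 control regions. The interval held 39.6% of the KAP1 regions of its chromosome, 21.4% of the ZFP57 regions and 16.01% of the control regions. Of stretches of 7 Mb laid end to end in phase with the interval, 39 held at least 100 KAP1 regions. Among these it ranked 1 by KAP1 per ZFP57 region, where the median over all 39 was 1.07. By KAP1 per control region it ranked 5. The interval was chosen by such counts. The stretches were laid to fit its ends, which can cut blocks elsewhere, so both ranks are description only. The 1 Mb windows on either side mark the edges. From 17 to 18 Mb there were 20 control, 8 ZFP57 and 8 KAP1 regions, and from 25 to 26 Mb there were 30, 16 and 10. Just inside, from 18 to 19 Mb there were 34, 24 and 38, and from 24 to 25 Mb 47, 34 and 62.

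Along the interval the counts per step were uneven, from 0 to 61 KAP1 regions, and some dense steps lay side by side. Of the 28 steps of 250 kb, 19 held at least 5 KAP1 regions. KAP1 outnumbered both HA lists in 12 of these 19, where 36.0% of such steps did so over the whole genome. It outnumbered ZFP57 in 15 (62.4% over the genome) and the control in 13 (39.4%). The choice of the interval used these counts, and nothing is read from the difference. The 12 steps held 332 KAP1, 151 ZFP57 and 236 control regions, which is 77.2% of the KAP1, 68.3% of the ZFP57 and 67.4% of the control members.

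**Figure D1:**
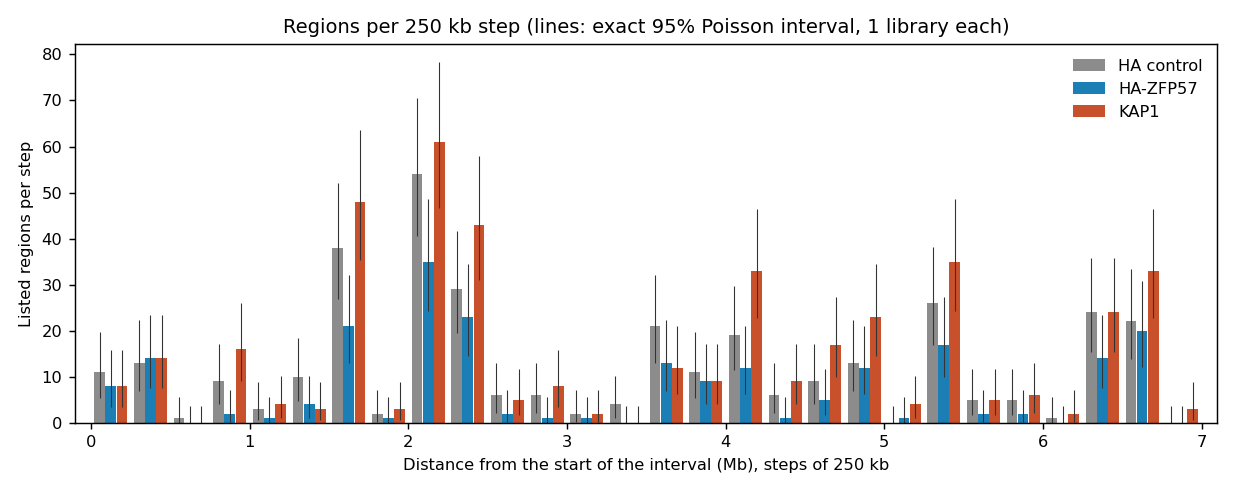
Listed regions per 250 kb step (y axis) against the distance from the start of the interval in Mb (x axis), for the HA control, HA-ZFP57 and KAP1 libraries; lines are exact 95% Poisson intervals. The largest KAP1 counts were 48, 61 and 43 regions, in 3 dense steps. KAP1 was above both HA lists in 12 of the 19 steps with at least 5 KAP1 regions. Between 3.25 and 4 Mb from the start the control was the highest of the 3 lists.

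The 5 steps with the largest difference between KAP1 and ZFP57 are given. The step from 19.5 to 19.75 Mb had the largest, with 48 KAP1 regions (95% Poisson interval 35.4 to 63.6), 21 ZFP57 regions and 38 control regions. From 20 to 20.25 Mb there were 61 KAP1 (46.7 to 78.4), 35 ZFP57 and 54 control regions, the highest counts of the interval in every list. The step from 22 to 22.25 Mb held 33 KAP1 (22.7 to 46.3), 12 ZFP57 and 19 control regions. In all 3 steps the order was KAP1, then control, then ZFP57. From 20.25 to 20.5 Mb there were 43 KAP1, 23 ZFP57 and 29 control regions, and from 23.25 to 23.5 Mb there were 35, 17 and 26. The Poisson intervals of KAP1 and ZFP57 lay apart in 3 steps, those starting at 18.75, 19.5 and 22 Mb. In 0 steps did those of KAP1 and the control lie apart. These Poisson intervals treat clustered regions as independent, and the interval was chosen by the same counts. The share of such steps over the genome is not given, so nothing is read from their number.

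The 12 steps formed 8 runs. The longest run joined 4 neighbouring steps from 22 to 23 Mb, with 82 KAP1 regions, 30 of ZFP57 and 47 of the control. The run from 20 to 20.5 Mb held 104, 58 and 83. Not all of the interval followed this order. In the 3 steps from 21.25 to 22 Mb the control was highest with 36 regions, against 22 for ZFP57 and 21 for KAP1. From 18 to 18.5 Mb the lists were nearly level, with 8 KAP1, 8 ZFP57 and 11 control regions in the first step and 14, 14 and 13 in the next. The surplus over the control was thus patchy: by 1 Mb it was 4, 5, 22, -15, 35, 14 and 15 regions from 18 to 25 Mb.

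**Figure D2:**
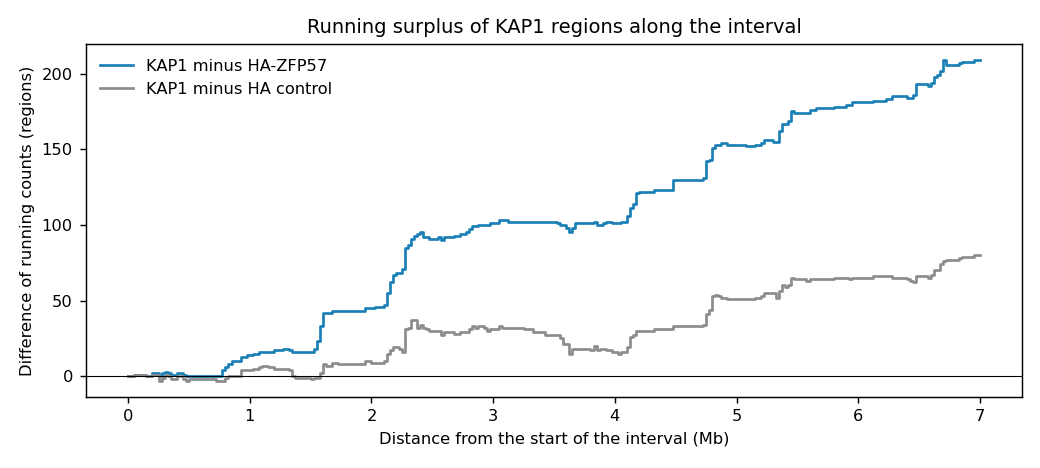
Running count of KAP1 regions minus HA-ZFP57 regions and minus HA control regions (y axis) against the distance from the start of the interval in Mb (x axis). The surplus over ZFP57 grows in a few jumps; the surplus over the control shrinks between 3 and 4 Mb, where the 1 Mb window held 23 KAP1 and 38 control regions.

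The share of KAP1 regions on HA regions was smaller in the interval than in the list as a whole. Of the 430 KAP1 members, 126 lay on a control region, which is 29.3% (25.04 to 33.9%, exact 95% interval), where 47.1% of the whole KAP1 list did. On a ZFP57 region lay 110, or 25.6% (21.5 to 29.98%), against 47.5%. On both lay 58, or 13.5% (10.4 to 17.1%), against 36.8%. The remaining 252, or 58.6% (53.8 to 63.3%), overlapped neither HA list, against 42.2% of the whole list. The whole-list shares lay outside all 4 intervals, which cover counting error only and treat clustered regions as independent. A larger number of KAP1 regions beside a given number of HA regions leaves more of them without a partner, so these shares are not independent of the choice of the interval.

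Seen from the HA lists, the shares were different. Of the 221 ZFP57 members, 98 overlapped a control region (44.3%, 37.7 to 51.2%), against 49.0% of the whole ZFP57 list. On a KAP1 region lay 108 (48.9%, 42.1 to 55.7%), against 44.7%, and on both lists 65 (29.4%, 23.5 to 35.9%), against 34.9%. The other 80 (36.2%, 29.9 to 42.9%) lay on neither, against 41.2%. All 4 whole-list shares lay within the counting intervals. Of the 350 control members, 124 lay on a KAP1 region (35.4%, 30.4 to 40.7%), against 21.2% of the whole control list, and 98 on a ZFP57 region (28.0%, 23.4 to 33.0%), against 23.6%. On both lay 61, or 17.4%, against 16.6%, and on neither 189, or 54.0%, against 71.9%.

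**Figure D3:**
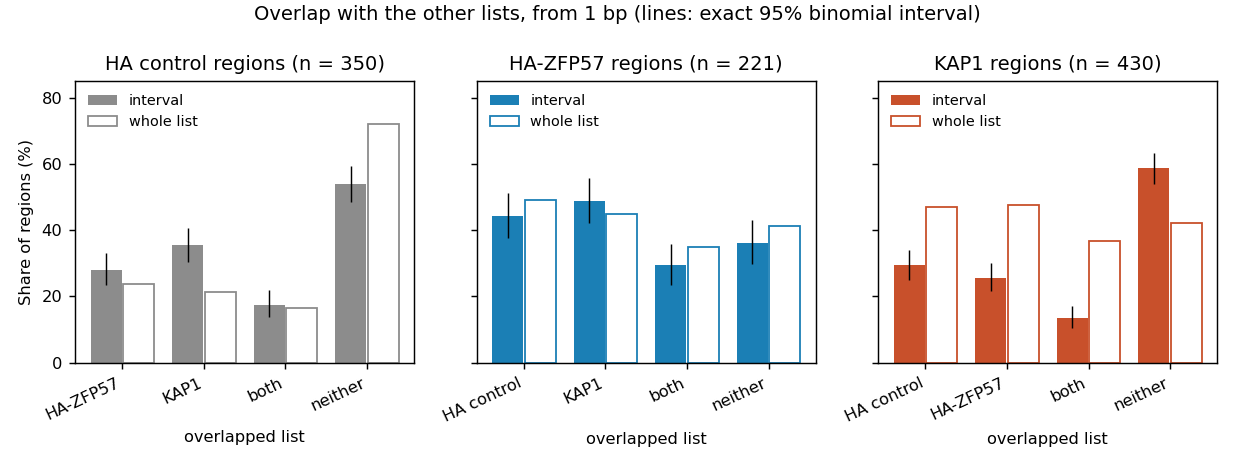
Share of regions in % (y axis) that overlapped each other list, both or neither (x axis), for the 3 lists; filled bars are the interval with exact 95% binomial intervals as lines, and open bars are the whole list. KAP1 regions of the interval overlapped each HA list at 29.3% and 25.6%, below the open bars at 47.1% and 47.5%.

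When overlapping regions of the lists were joined into single sites, the interval held 708 sites. KAP1 alone made up 247 of them (34.9%), where it made up 13.4% of the 64484 sites of the genome. The control alone made up 185 (26.1%, against 50.9%) and ZFP57 alone 78 (11.02%, against 13.9%). All 3 lists met at 63 sites (8.90%, against 11.8%). KAP1 and the control without ZFP57 met at 61 sites (8.62%, against 2.79%), and ZFP57 and KAP1 without the control at 42 (5.93%, against 2.86%). Both HA lists met without KAP1 at 32 (4.52%, against 4.32%). These shares too are not independent of the choice of the interval.

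By 1 Mb window, the share of KAP1 regions on no HA region was highest from 21 to 22 Mb, with 16 of 23 (69.6%, 47.1 to 86.8%), and lowest from 20 to 21 Mb, with 60 of 117 (51.3%, 41.9 to 60.6%). No test between windows was made. The window with the largest KAP1 surplus over the control, from 22 to 23 Mb, had 54 of 82 (65.9%, 54.6 to 75.97%). The window with the largest surplus over ZFP57, at 56 regions, was that from 20 to 21 Mb.

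For comparison, 1 Mb windows elsewhere with at least 30 KAP1 regions and more KAP1 than control regions were joined into blocks. In the block with the most KAP1 regions, chromosome 4 from 145 to 148 Mb, 419 of 1448 KAP1 regions (28.9%, 26.6 to 31.3%) lay on no HA region. There the list held 1.26 KAP1 regions for each ZFP57 region. Chromosome 13 from 62 to 63 Mb had the most KAP1 per control region among blocks with at least 100 KAP1 regions, and 2.25 KAP1 regions for each ZFP57 region. There 83 of 126 (65.9%, 56.9 to 74.1%) lay on no HA region. The chromosome 12 interval, at 58.6%, had a counting interval apart from the first and overlapping the second. These values compare single libraries, and no test between the blocks was made.

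The KAP1 regions without an overlapping HA region lay at a range of distances from HA regions. For the 252 such members the median distance from midpoint to midpoint was 1046 bp, against 3094 bp for the 8816 of the whole list. Between 150 and 500 bp lay 79 of the 252 (31.3%), and from 500 to 1000 bp 44 (17.5%). At 10 kb or more lay 42 (16.7%), where 34.1% of the 8816 did. Counted over all KAP1 members, 129 of 430 (30%, 25.7 to 34.6%) had no HA region within 1 kb, against 27.9% of the whole list. The interval held 50 control and 31.6 ZFP57 regions per Mb, and the part of this density in the short distances was not tested.

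**Figure D4:**
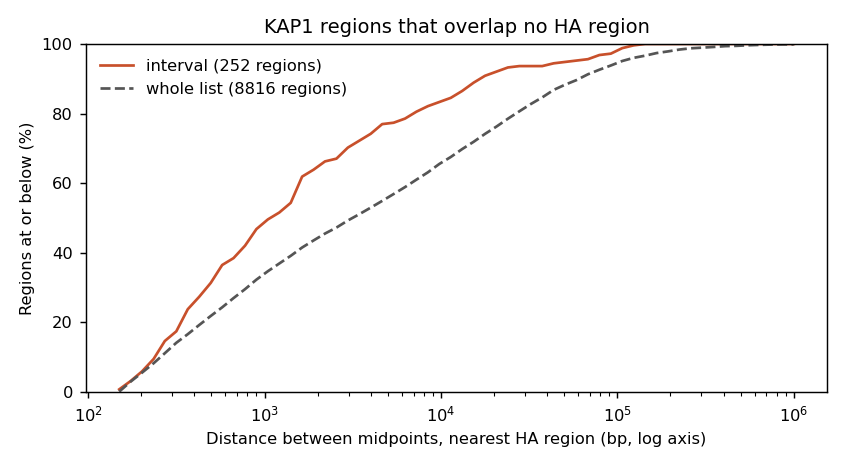
KAP1 regions that overlap no HA region: share at or below a distance in % (y axis) against the distance to the nearest HA region in bp on a log axis (x axis), for the interval and the whole list. The interval reached its median at 1046 bp and the whole list at 3094 bp.

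Where KAP1 did overlap an HA region, the offsets were larger than over the whole list. Midpoints lay within 50 bp for 65 of 110 KAP1 members on ZFP57 (59.1%, against 69.6% over the whole list) and for 56 of 126 on the control (44.4%, against 65.1%). With ZFP57 the median offset was 42.5 bp, against 25 bp, and with the control it was 53.5 bp, against 34 bp. Between ZFP57 members and the control it was 44.5 bp, against 30 bp. No test was made of these differences.

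Joining regions of any list across gaps of up to 5 kb gave 181 loci, 40 of them with all 3 lists. KAP1 was present in 110, ZFP57 in 73 and the control in 121. The 21 loci with at least 5 KAP1 regions held 296 of the 430 KAP1 members (68.8%), a share not compared with the whole list. In 18 of these 21 KAP1 outnumbered both HA lists, where 54.2% of such loci did over the genome; the choice of the interval used these counts too. When each list was joined by itself, there were 3.44 KAP1 regions per locus, 2.28 ZFP57 regions and 2.43 control regions. Over the whole lists there were 2.74, 2.23 and 1.58. There were 97 such ZFP57 loci and 144 control loci, and 0.868 KAP1 loci for each control locus. In raw counts, the KAP1 surplus over the control was therefore one of regions within loci and not of loci. The whole lists formed 7609 KAP1 and 29066 control loci. Relative to the whole lists, KAP1 loci were thus also more frequent here against control loci.

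The locus with the most KAP1 regions ran from 19535365 to 19597752 (62.4 kb) and held 35 KAP1, 16 ZFP57 and 27 control regions, of which 18 KAP1 regions lay on no HA region. The locus from 20252480 to 20289898 had the largest surplus, with 32 KAP1 regions against 17 in each HA list. The locus from 22098340 to 22127358 held 18 KAP1 regions against 7 in each HA list, and 13 of the 18 lay on no HA region. From 22728920 to 22749274 there were 16 KAP1, 5 ZFP57 and 9 control regions. These 4 loci had the largest surplus over the larger HA count, at 8, 15, 11 and 7 regions. The last tied with the locus from 24672832 to 24720531, which held 21, 14 and 14.

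The locus from 20227530 to 20240334 (12.8 kb) held 21 KAP1, 18 ZFP57 and 23 control regions, and 2 of its 21 KAP1 regions lay on no HA region. In this dense locus the control and not KAP1 was highest. The locus from 24439290 to 24464143 held 19 KAP1, 10 ZFP57 and 16 control regions, with 5 of 19 on no HA region. The 6 loci with the most KAP1 regions held 34.0% of the KAP1, 37.1% of the ZFP57 and 29.7% of the control members. These 6 loci thus held like shares of each list.

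KAP1 stood without any HA region in 43 loci, which held 55 KAP1 members. Counted by distance, 58 KAP1 members (13.5%) had no HA region within 5 kb, against 18.7% of the whole list. Of the 43 loci 36 held 1 region, 5 held 2, 1 held 3 and 1 held 6. The last, picked after its values were seen, ran from 20299071 to 20306837. Its 6 regions started at 20299071, 20300139, 20302363, 20303042, 20304682 and 20306688, between 9322 and 16939 bp from the nearest control region. The nearest ZFP57 regions were 9525 to 13850 bp away. No HA region is listed within this 7.77 kb span, although the locus with the largest surplus is its upstream neighbour.

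The 5 KAP1 regions farthest from any HA region were single. They started at 22321618, 24948780, 24109441, 23189029 and 24842677, at 140, 114, 109, 103 and 103 kb from the nearest HA region. Within 5 kb of each there were 0 other KAP1 regions. Of the 5, 4 lay in steps with 2 to 4 KAP1 regions, and the farthest lay in the step from 22.25 to 22.5 Mb, with 9.

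ZFP57 and KAP1 overlapped without a control region at 43 of the 221 ZFP57 members (19.5%, 14.5 to 25.3%), against 9.80% of the whole ZFP57 list. In the blocks on chromosomes 4 and 13 this share was 17.3% and 28.6%. Among joined sites, KAP1 and the control without ZFP57 were also more frequent here, at 8.62% against 2.79%. The share is not independent of the choice of the interval by its KAP1 counts. The median distance of the 43 to a control region was 1112 bp, and 22 lay more than 1 kb from one. The 8 that lay more than 5 kb away were picked after their values were seen. They started at 18274720, 18279973, 18376441, 18480064, 19654359, 20803391, 21801050 and 22770732. The midpoint of the nearest KAP1 region was 25, 9, 25, 3, 19, 42, 44 and 83 bp away in that order. The region at 19654359 was 48.0 kb and that at 18376441 42.7 kb from the nearest control region. Of the 8, 4 lay in the level step from 18.25 to 18.5 Mb and not in a step of KAP1 surplus.

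Neighbouring KAP1 regions were closely spaced. The median gap from start to start was 1543 bp for KAP1 (quartiles 437 and 6662 bp). In the ZFP57 list it was 3424 bp, and in the control list 3058 bp. Another KAP1 region lay within 1 kb of 237 KAP1 members (55.1%), near the 57.5% of the whole list. For the control this share was 44.9%, against 28.8%, and for ZFP57 41.6%, against 48.2%. Of the 354 KAP1 gaps of up to 20 kb, 84 (23.7%) had a length seen at least 3 times within 2 bp. For the control it was 26 of 282 and for ZFP57 0 of 171. More gaps give more chances of equal lengths, so these counts cannot be ranked between the lists. In 11 other stretches of 7 Mb with 300 to 600 KAP1 regions the share ran from 14.7 to 47.1%, and the interval lay within that range.

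Some long distances recurred. The most frequent distance between members of the same list was 298334 bp, found 15 times, 8 times in the KAP1 list, 6 in the control and 1 in ZFP57. All 15 pairs had this distance to the base. They joined the stretch from 22163319 to 22176807 (13.5 kb) with the stretch from 22461653 to 22475141. The outermost matched pairs set the edges of the stretches, here and below. Between these edges 8 of 8 KAP1, 6 of 6 control and 1 of 1 ZFP57 regions had a counterpart. In the 5 kb upstream of the first stretch, 1 KAP1, 3 control and 3 ZFP57 regions had none within 30 bp. Among the 169204 distances above 20 kb seen between members, the median had 1 pair and the highest percentile began at 3.

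A second arrangement joined the stretch from 19520990 to 19558790 (37.8 kb) with that from 20106160 to 20143927. It gave 12 pairs at 585142 bp and 9 more at 585169 bp, both within 2 bp. Allowing 30 bp around 585142, 17 of 21 KAP1, 13 of 18 control and 5 of 10 ZFP57 regions of the first stretch had a counterpart in the second. Of the second stretch, 17 of 24 KAP1, 13 of 16 control and 5 of 10 ZFP57 regions had a counterpart in the first. In the 5 kb downstream of the first stretch, 2 KAP1 and 3 control regions had none. These stretches lie in the steps with the highest KAP1 counts, from 19.5 to 19.75 Mb and from 20 to 20.25 Mb. The third, the next distance above 20 kb by number of pairs, was 331266 bp with 7 pairs. It joined the stretch from 23921163 to 23939131 with that from 24252431 to 24270391. Within 30 bp, 4 of 4 KAP1, 4 of 4 control and 1 of 2 ZFP57 regions of its first stretch had a counterpart. Of its second stretch, 4 of 4 KAP1, 4 of 5 control and 1 of 1 ZFP57 regions did.

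**Figure D5:**
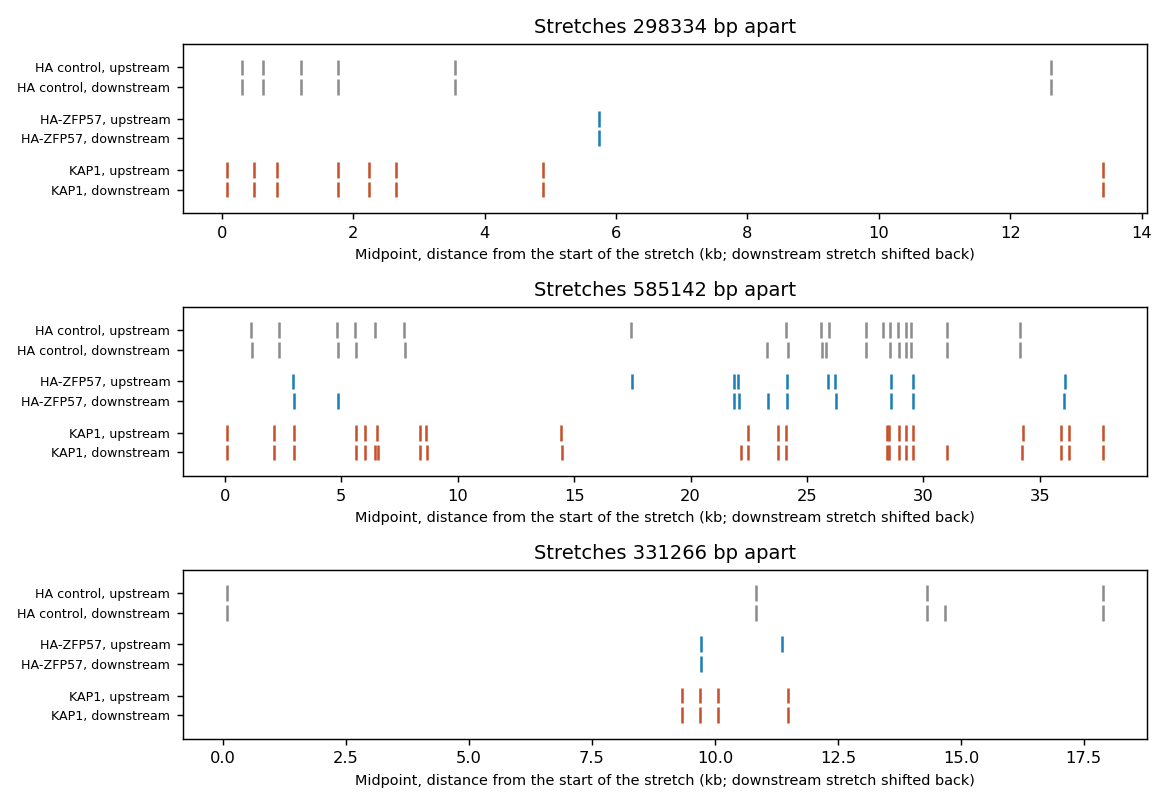
Midpoints of listed regions (ticks) against the distance from the start of the stretch in kb (x axis), for 3 pairs of stretches, with rows for each library and the upstream and downstream stretch; the downstream one is shifted back by the distance in the panel title. In the pair 298334 bp apart all 8 KAP1, 6 control and 1 ZFP57 ticks line up.

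Together the 3 pairs of stretches held 69 KAP1 members (16.05%), 25 ZFP57 members (11.3%) and 55 control members (15.7%). Within 30 bp of the shifted position a counterpart was listed for 29 of 33 KAP1, 23 of 28 control and 7 of 13 ZFP57 regions of the upstream stretches. The downstream stretches held 36 KAP1, 27 control and 12 ZFP57 regions. The stretches were found by these distances, so the counts describe them and support nothing further. Whether they are copies of the same sequence, to which the same reads can map, was not tested. Regions in them may not be separate observations. Without the downstream stretches, chosen after seeing the data, KAP1 per ZFP57 was 1.89 and KAP1 per control 1.22. Long KAP1 distances recurred elsewhere too. In the 11 stretches of 7 Mb named above, the most frequent KAP1 distance above 20 kb had 5 to 43 pairs, with a median of 12, against 8 here. Whether those pairs join stretches matched in all 3 lists was not examined.

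The shorter recurring distances were found in several loci and partly inside the paired stretches. A distance of 883 bp occurred 12 times, 7 of them in the control list, 4 in KAP1 and 1 in ZFP57, between 18228022 and 23421325. Of these 12 pairs, 5 lay inside the stretches described above, where a pair can be counted in both. A distance of 359 bp occurred 11 times, 6 of them in KAP1, and 3 of the 11 lay inside the stretches. Over the genome they occurred 256 and 326 times in the 3 lists. A distance of 3119 bp was found 8 times in KAP1 and 0 times in either HA list, and was picked after its values were seen. The 8 include 2 inside the stretches, at matching places of the pair 298334 bp apart. Over the genome it occurred 71 times in KAP1, 71 in ZFP57 and 82 times in the control, so it was not limited to KAP1 there.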

How the data were processed

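Genomic regions of 3 ChIP-seq libraries, 1 per group, were analysed as the authors deposited them, with only a chromosome and the 2 ends of each region. The lists carry no score, height or depth. Bowtie and build mm9 are named per the submitters' processing notes. The Bowtie version, peak caller, threshold and treatment of reads with several mapping positions are, for these lists, not given in the sources used, and they bear on regions in repeated sequence.

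Members are the regions whose start in the list lies on chromosome 12 from 18 Mb up to 25 Mb. Positions are printed counting from 1. Overlap was counted from 1 bp, on the whole lists. Steps of 250 kb were compared where they held at least 5 KAP1 regions. Loci are regions of any list joined across gaps of up to 5 kb. A recurring distance is a start-to-start distance between members of the same list, equal within 2 bp. Shares carry exact (Clopper-Pearson) 95% intervals and counts exact 95% Poisson intervals. Both cover counting error only. With 1 library per group there was no test.

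Named items follow fixed rules. These take the 5 steps with the largest difference between KAP1 and ZFP57, the 6 loci with most KAP1 regions, the 4 loci with the largest KAP1 surplus, the 5 KAP1 regions farthest from an HA region and the 5 most frequent distances. The interval, lists and rules were chosen with earlier results of these data known. The code was tested on simulated data. Python 3.11.15, numpy 2.4.6, scipy 1.17.1 and matplotlib 3.10.9 were used.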

Additional observations from a re-analysis of the deposited data

How the results depend on the processing

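Leaving out replicates was not run, since every group is a single library. No paired analysis was possible because the groups share only 1 replicate number. Of 38 values under alternatives, 22 stayed within the interval of the main value or, for counts, within 1.5 times of it. The 22 include counts over steps of other sizes and numbers. Such counts are not comparable with 12 of 19 steps, so the tally is no measure of stability. Requiring 75 bp of overlap put 18.1% of KAP1 members on the control, 33.0% of ZFP57 members on the control, 17.7% of KAP1 members on ZFP57 and 7.21% on both; midpoints within 500 bp gave 44.2%, 56.1%, 42.1% and 26.5%. Counting each locus of a list once gave 1.29 KAP1 per ZFP57 locus and, on the other side of 1, 0.868 KAP1 per control locus, since KAP1 loci hold more regions each. Dividing by list length gave 2.71 for KAP1 per control, by construction. Recurring KAP1 gaps numbered 18 when equal exactly, 196 within 10 bp and 27 when seen at least 5 times, against 84. KAP1 members with no HA region within 5 kb numbered 58 and those overlapping none 252, against 129 at 1 kb. The share at 5 kb, 13.5%, was below the 18.7% of the whole list. At 1 kb it was 30%, against 27.9%. KAP1 was above both HA lists in 12 of 19 steps, against 36.0% of such steps over the genome. It was so in 17 of 21 when shifted to the middle of a step, 14 of 21 of 100 kb and 10 of 13 of 500 kb. After merging it was 13 of 19, with at least 10 KAP1 regions 9 of 12, and without the downstream stretches 11 of 18. Scaled to list length it was 18 of 19, where scaling raises KAP1 against both HA lists in every step by construction. Genome shares under these other settings are not given, so nothing is read from their counts. Leaving out the downstream stretches or the 6 loci with most KAP1 regions was chosen after seeing the data. Unknown depth, threshold and mapping rules limit every count.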
